A study of Mus musculus with 34 samples.

Results

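Eph receptors, ephrins, Slits, Robo receptors, netrins and netrin receptors were followed across the mouse brain 3 days after birth. The members are 37 genes, named by the family they belong to: 14 Eph receptors, 8 ephrin ligands, 3 Slit ligands, 4 Robo receptors, 2 netrins and 6 netrin receptors. Their probes were found through the RefSeq accession in the scanner files, which gave 49 probes for all 37 genes, out of 55681 probes and 20145 named genes on the array. All 49 probes passed the rule on dim signals (a probe had to be detected above background somewhere in every plane), and 33 of the 37 genes were well above background in all 34 fractions. A gene with several probes is represented by its brightest probe, and other probes are given where they disagree.

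These families steer growing axons, migrating neurons and sprouting blood vessels. Ephrins are held at the cell surface, the A class by a lipid anchor and the B class by a membrane-spanning segment. They bind Eph receptor tyrosine kinases on neighbouring cells, mostly within their class. Slits are secreted proteins that repel axons through Robo receptors, best known at the midline of the nervous system. Netrin-1 is secreted as well. It attracts axons that carry Dcc and repels those that carry Unc5 receptors. Opposed gradients of ephrins and Eph receptors are a classic feature of topographic maps such as the retinal projection to the midbrain.

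Untreated C57BL/6J males, 3 in number and 3 days old, each gave a brain that was sectioned along a single plane, and every 100 sections of 5 μm were pooled into a fraction 500 μm thick. The coronal brain yielded 15 fractions, the horizontal brain 8 and the sagittal brain 11. Sagittal fractions 1 and 11 pool 2 cut fractions each. Each fraction went on 1 Agilent array of a single colour. There is no replicate of a fraction, and plane and mouse cannot be told apart. The comparisons ask whether a signal changes with position, and the p-values describe the scatter around a curve within 1 brain. A fraction holds every cell type of its slab, and fewer cells of a type and less RNA per cell cannot be told apart.

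Of the 59305 spots of an array, from 29598 to 37091 were well above background, and no spot was saturated. The arrays lay on 5 slides that overlap with position. Coronal fractions 1 to 8 lay on one slide, and 6 of the other 7 on another, while a further slide held fractions of all 3 planes. The end from which fractions were counted is not given in the labels. Marker lists for brain regions peaked at coronal fraction 2 for the hindbrain (6 Hox genes), fraction 5 for the raphe, fraction 6 for the midbrain, fraction 8 for the thalamus and the hypothalamus, fraction 11 for the striatum, fraction 13 for the cortex and fraction 15 for the olfactory bulb. In the horizontal plane the cortex list peaked at fraction 2 and the hypothalamus list at fraction 8. In the sagittal plane the raphe list peaked at fraction 6 and the cortex list was lowest there, and fraction 6 was taken as the middle.

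The promoter stretches of 7 members on which the results turn are shown first, because these genes include neighbours on a chromosome. On chromosome 3 the start of Efna3 lies 42.0 kb from that of Efna1 and 15.1 kb from that of Efna4, and these genes encode ligands whose signals all rose along the coronal axis. Signals of 27.2% of all genes tested rose as well, and the rise of Efna3 depended on the scaling, as given below. Efnb2 had the largest coronal change of any ephrin, and Epha1 was far higher in the middle than at the sides of the sagittal series. Robo3 and Robo4 start 31.2 kb apart on chromosome 9 and had opposite coronal profiles. Each line gives the 150 bases before the annotated start, 5′ to 3′ on the strand of the gene, from RefSeq on build GRCm38.p6. Capitals mark matches on either strand to the GC box (GGGCGG), the TATA box (TATAAA), the CCAAT box (CCAAT) and a homeodomain core (TAATTA).
Efna1: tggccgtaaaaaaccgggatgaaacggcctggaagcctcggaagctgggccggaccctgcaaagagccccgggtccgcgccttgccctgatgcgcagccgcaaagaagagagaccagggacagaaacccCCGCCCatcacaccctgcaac
Efna3: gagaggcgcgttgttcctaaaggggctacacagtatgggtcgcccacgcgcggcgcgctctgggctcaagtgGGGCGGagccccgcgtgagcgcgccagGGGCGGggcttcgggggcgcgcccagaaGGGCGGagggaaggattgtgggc
Efna4: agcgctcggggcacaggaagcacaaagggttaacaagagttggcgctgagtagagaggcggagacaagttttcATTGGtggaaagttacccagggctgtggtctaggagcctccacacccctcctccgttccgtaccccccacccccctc
Efnb2: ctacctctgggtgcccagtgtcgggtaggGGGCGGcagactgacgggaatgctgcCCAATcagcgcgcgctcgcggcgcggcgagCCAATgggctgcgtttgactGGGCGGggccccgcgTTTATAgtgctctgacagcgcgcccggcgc
Epha1: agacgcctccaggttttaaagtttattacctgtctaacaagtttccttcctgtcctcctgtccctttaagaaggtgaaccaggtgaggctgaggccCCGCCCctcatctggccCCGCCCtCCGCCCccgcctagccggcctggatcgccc
Robo3: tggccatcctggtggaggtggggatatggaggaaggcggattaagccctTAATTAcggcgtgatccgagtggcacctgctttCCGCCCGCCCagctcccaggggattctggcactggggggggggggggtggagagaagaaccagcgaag
Robo4: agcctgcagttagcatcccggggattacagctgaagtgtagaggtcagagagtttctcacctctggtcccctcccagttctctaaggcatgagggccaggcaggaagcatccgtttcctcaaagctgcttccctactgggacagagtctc
The stretches lie at chr3:89280952-89281101 (minus strand) for Efna1, chr3:89322940-89323089 (minus strand) for Efna3, chr3:89338029-89338178 (minus strand) for Efna4, chr8:8661243-8661392 (minus strand) for Efnb2, chr6:42373269-42373418 (minus strand) for Epha1, chr9:37433176-37433325 (minus strand) for Robo3 and chr9:37401822-37401971 (plus strand) for Robo4. The members' stretches had a median GC content of 67.0% against 54.0% over all promoters, and a GC box is made of these bases. A GC box stood in the stretch of 22 of the 32 members listed in the RefSeq promoter table (68.8%) and in 28.6% of all 32851 listed promoters. Members were counted by gene and the background by listed promoter, here and for the GC content and the other motifs. The units therefore differ, and the differences were not tested. The TATA box stood in 6.2% of the members' stretches against 7.6% of all, the CCAAT box in 31.2% against 24.5%, and the homeodomain core in 3.1% against 2.7%. Efnb2 held matches to 3 of these motifs. Robo3 held the homeodomain core, and 2 of its GC box matches overlap each other. Robo4 held no match to these letters in this window. Efnb3, Slit1, Ntn1, Dcc and Unc5d were not matched in the table.

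Values below are log2 of the processed signal less the 75th percentile of the array, so that a difference of 1 is a doubling. Levels of different genes are not compared, since probes differ in brightness. The members had very different spreads. Over the coronal fractions in which a probe was well above background, the difference between the highest and lowest signal had a median of 1.48 over the 37 genes. The median was 0.89 over the horizontal and 0.84 over the sagittal fractions. Ntn1 had the widest such range in all 3 planes, at 2.83, 3.04 and 2.58. Epha1 spanned more, but its lowest signals were not well above background in any plane.

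**Figure D1:**
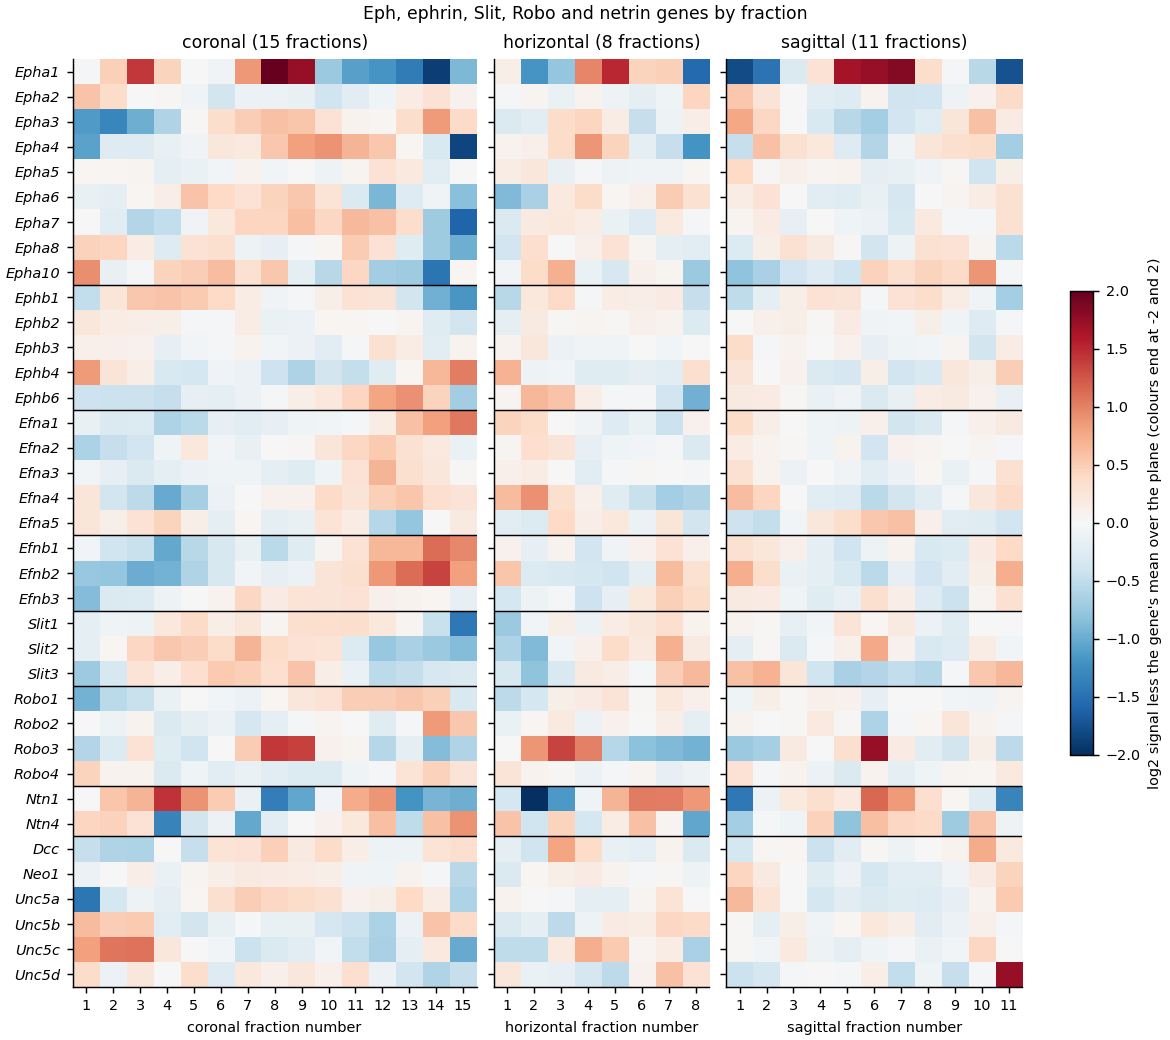
Log2 signal of the brightest probe of each of the 37 genes in the 15 coronal, 8 horizontal and 11 sagittal fractions, less the gene's mean over the plane. Rows are grouped from the top as EphA and EphB receptors, ephrin-A and ephrin-B ligands, Slits, Robo receptors, netrins and netrin receptors. Most ephrin rows turn from blue to red along the coronal axis, and Epha1, Robo3 and Ntn1 show the deepest colours, with the lowest Epha1 signals not well above background.

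Along the coronal axis most ephrin ligands rose toward the end where the cortex and olfactory bulb lists peaked. By the fit described below, signals of 7 of the 8 ephrins rose (Efna1, Efna2, Efna3, Efna4, Efnb1, Efnb2 and Efnb3) and that of none fell. Efna2 and Efnb3 did not rise up to the last fraction. They were highest in fractions 12 and 7, and in fraction 15 lay below their medians (0.293 against 0.415, and 4.87 against 5.10). Among the 14 Eph receptors 2 rose (Epha3 and Ephb6) and 5 fell (Epha1, Epha8, Epha10, Ephb1 and Ephb2). The gradient is the fitted change from fraction 1 to fraction 15 in a limma fit with a linear and a quadratic term, with a Benjamini-Hochberg adjusted p under 0.05 over all 34186 probes tested. It was called for 21 of the 37 members, 13 upward and 8 downward, where 43.6% of all 15871 genes tested were called (27.2% upward and 16.4% downward). The upward count holds Dcc, whose probes disagree in direction, and the downward count holds Epha1, Epha10 and Unc5d, whose low ends were not well above background. The median gradient was 0.73 over the ephrin-A ligands, 1.59 over the ephrin-B ligands, -0.20 over the EphA receptors and -0.03 over the EphB receptors, beside 0.10 over all genes tested. With the slide as a block 4 members remained called (Epha3, Epha8, Efna1 and Efnb2), and the share called over all probes went from 38.9% to 5.11%. Within the slides of fractions 1 to 8 and of later fractions the slope had the sign of the whole series on both for 10 of the 21. Of the called ephrins, Efnb1 had the other sign on the first of these slides, and Efna2 and Efnb3 on the second. The share of upward calls over all probes was 64.3%, and 51.9% after quantile normalization, which lowered the median gradient of all probes by 0.118. No called gradient of a member changed sign under another scaling.

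Efnb2, which encodes the ligand that marks arterial vessels and many neural territories, had its lowest signal of 1.30 in coronal fraction 3, a median of 2.18 and its highest signal of 3.66 in fraction 14. Fractions 12 to 15 lay above all others, between 3.13 and 3.66. The mean was 3.40 ± 0.27 in fractions 13 to 15 and 1.46 ± 0.13 in fractions 1 to 3 (SD over 3 fractions), a 3.85-fold difference. The fitted gradient was 2.28 ± 0.20 (SE), with a limma adjusted p of 3.32e-06. Its second probe had a gradient of 1.46 ± 0.37, with a limma adjusted p of 0.00689.

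Efnb1, the X-linked ligand of EphB receptors, ran from 2.38 in fraction 4 through a median of 3.26 to 4.53 in fraction 14. Signals in fractions 11 to 15 were all above those in fractions 1 to 10. The gradient was 1.59 ± 0.20 with a limma adjusted p of 5.14e-05, and the signal was also higher at both ends than in the middle, by a fitted 0.78 ± 0.18. Efna1, a ligand first found in endothelium, was lowest at -0.76 in fraction 4, had a median of -0.29 and reached 0.91 in fraction 15. The last 3 fractions were above all others. The gradient was 1.22 ± 0.12 with a limma adjusted p of 9.31e-06.

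Efna4 was lowest at -1.95 in fraction 4, had a median of -0.85 and was highest at -0.38 in fraction 13. Fraction 1, at -0.69, stood above fractions 2 to 9. The Efna4 gradient was 0.98 ± 0.28 with a limma adjusted p of 0.013. Efna2 and Efna3 rose by 0.73 ± 0.16 and 0.53 ± 0.18, and both were highest in fraction 12. The Efna3 call was lost with the array median as the scale (0.47, limma adjusted p = 0.0717), and its second probe was not called (0.17 ± 0.16, limma adjusted p = 0.43). Efnb3, a midline ligand of the spinal cord and brain, rose by 0.53 ± 0.11 and was higher in the middle than at the ends by 0.71. Without fraction 1 its gradient was 0.25 with a limma adjusted p of 0.0713, and after quantile normalization 0.20 with a limma adjusted p of 0.231. Efna5, a ligand of topographic maps, was not called (-0.48 ± 0.25, limma adjusted p = 0.138) and had its lowest signal of 1.09 in fraction 13.

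Of the Eph receptors, Epha3, a receptor for A-class ephrins, rose most. Its lowest signal was -1.92 in fraction 2, its median -0.33 and its highest 0.24 in fraction 14. Fractions 1 to 4 lay below all others, at -1.22 or less, and the later fractions formed a plateau between -0.59 and 0.24. The gradient was 1.64 ± 0.26 with a limma adjusted p of 0.000298. Ephb6, a receptor without kinase activity, rose by 0.89 ± 0.31 to a highest signal of 4.30 in fraction 13, and fraction 15 was its lowest at 2.68. It was not called with the array median as the scale (0.83, limma adjusted p = 0.0667) or after quantile normalization (0.65, limma adjusted p = 0.0813), and its second probe was not called (0.21 ± 0.24, limma adjusted p = 0.531).

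Epha1 fell. Its lowest signal was -6.19 in fraction 14, its median -4.33 and its highest -1.98 in fraction 8, with a second, smaller peak of -2.90 in fraction 3. It was not well above background in fractions 10 to 15, so that its signal there is only a bound. Fractions 7 to 9 were at least 3.31-fold above fractions 13 to 15, and fractions 1 to 3 at least 1.63-fold. The fitted gradient was -2.23 ± 0.73 with a limma adjusted p of 0.0257, and -0.54 with a limma adjusted p of 0.155 after the normexp background correction.

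Epha10 ran from -5.93 in fraction 14 through a median of -4.43 to -3.54 in fraction 1. It was not well above background in 5 of the last 6 fractions, and its gradient was -1.25 ± 0.41 with a limma adjusted p of 0.0262 (0.0568 without fraction 1). Fractions 1 to 3 were at least 1.08-fold above fractions 13 to 15, none of which was well above background. Ephb1, a receptor of B-class ephrins, ran from 1.98 in fraction 15 through a median of 3.29 to 3.71 in fraction 4. Fractions 1 and 13 to 15 lay below all others. The Ephb1 gradient was -0.95 ± 0.24 with a limma adjusted p of 0.00667, and -0.64 with a limma adjusted p of 0.0835 without fraction 15. Epha8 and Ephb2 fell by 0.83 and 0.37, and without fraction 15 their limma adjusted p rose to 0.138 and 0.0665.

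**Figure D2:**
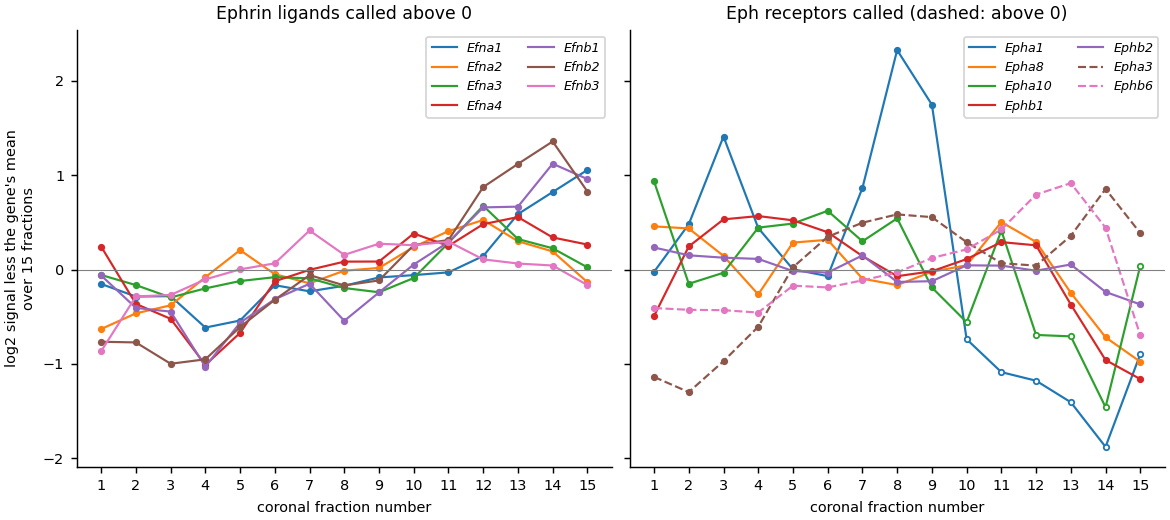
Log2 signal less the gene's mean over the 15 coronal fractions for the 7 ephrin ligands called (left) and the 7 Eph receptors called (right, dashed where the gradient is above 0). Open circles mark fractions in which the probe was not well above background. All 7 ligands have their highest value in fraction 7 or later, and Epha1 peaks in fractions 8 and 9.

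The coronal curvature, which sets the ends against the middle of the series, was called for 21 members as well, where 39.7% of all genes tested were called. Signals of 7 members were higher at the ends (18.6% of all genes) and those of 14 were higher in the middle (21% of all genes). All 3 Slits were among the latter. The EphA receptors Epha3, Epha4, Epha6 and Epha7 and the netrin receptors Neo1 and Unc5a were higher in the middle too. Slide as a block kept all 21 calls.

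Epha4, the receptor of both ephrin classes that holds motor and corticospinal axons to their side, had the largest called curvature. It was lowest at -0.81 in fraction 15, had a median of 1.08 and was highest at 1.94 in fraction 10, and both end fractions were below all others. The ends were lower than the middle by a fitted 1.79 ± 0.28, with a limma adjusted p of 0.00035. Epha7 ran from -1.67 in fraction 15 through 0.13 to 0.57 in fraction 11. Its curvature was -1.28 ± 0.34, with a limma adjusted p of 0.0105, and -0.77 with a limma adjusted p of 0.0973 without fraction 15. The other 2 Epha7 probes had called curvatures of -1.59 and -0.96.

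Slit1 had a flat top between 2.18 and 2.76 over fractions 1 to 13 and dropped to 0.95 in fraction 15, around a median of 2.51. Its curvature was -1.002 ± 0.20 with a limma adjusted p of 0.00183. Slit2 had its highest signal of -0.18 in fraction 7, a median of -0.59 and its lowest of -1.74 in fraction 15. Its signals in fractions 11 to 15 were the 5 lowest. The Slit2 curvature was -0.96 ± 0.16 and its gradient -1.13 ± 0.18, with limma adjusted p of 0.000606 and 0.000316. Slit3 ran from -2.54 in fraction 1 through -1.69 to -1.24 in fraction 9, and its curvature was -0.94 ± 0.20 with a limma adjusted p of 0.00279. All 3 curvatures kept their call and sign under every alternative run.

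The Robo receptors did not move together. Robo1, the main neuronal Slit receptor with Robo2, rose from 1.32 in fraction 1 through a median of 2.26 to 2.80 in fraction 13. Its gradient was 1.02 ± 0.18 with a limma adjusted p of 0.000572, and fraction 15, at 1.95, was again low. Robo2 rose by 0.52 ± 0.17, with a limma adjusted p of 0.0281, and its 2 highest signals were 3.15 and 2.85 in fractions 14 and 15. Under the array median and quantile scales the Robo2 gradient was 0.46 and 0.35, with limma adjusted p of 0.126 and 0.162, and without fraction 15 it was 0.39 with a limma adjusted p of 0.139.

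Robo3, the receptor that lets commissural axons cross the midline, had 2 fractions that stood far above the rest. Its signals in fractions 8 and 9 were -1.67 and -1.71, the next was -2.58 in fraction 7, the median was -3.27 and the lowest was -3.94 in fraction 14. Its curvature was -1.31 ± 0.37 with a limma adjusted p of 0.0148. Epha1 peaked in the same pair of fractions. Over the 15 coronal fractions Pearson's r between Epha1 and Robo3 was 0.80, and the 11 sagittal fractions gave 0.75, while the 8 horizontal fractions gave -0.18. The thalamus list, which also peaked at fraction 8, had an r of 0.93 with Epha1 and 0.64 with Robo3, although of its 6 genes only Tcf7l2 and Gbx2 peaked there. The hypothalamus list, with the same peak, had an r of 0.33 with Epha1 and 0.74 with Robo3. These points share arrays, slides and neighbouring tissue.

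Robo4, a receptor of the vessel wall, was higher at the ends. Its lowest signal was 1.22 in fraction 4, the median 1.42 and the highest 1.97 in fraction 14. The curvature was 0.63 ± 0.11 with a limma adjusted p of 0.000606. Ephb4, the venous receptor for ephrin-B2, had the largest curvature of this sign. Its lowest signal was -1.04 in fraction 9, its median -0.55 and its highest 0.60 in fraction 15, and fractions 1, 14 and 15 stood above all others. The Ephb4 curvature was 1.31 ± 0.16 with a limma adjusted p of 5.17e-05, and that of its second probe was 1.12 ± 0.17. Epha2, Efna1, Efnb1, Robo2 and the netrin receptor Unc5b (0.89 ± 0.19, limma adjusted p = 0.00299) completed this group.

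Lists of vessel and meningeal genes moved with this group along the coronal axis. All 8 endothelial genes (Pecam1, Cldn5, Kdr, Flt1, Cdh5, Esam, Tek and Tie1) were well above background in all 34 fractions, and 5 of them were called higher at the coronal ends. Their mean deviation ran from -0.37 in fraction 4 to 0.51 in fraction 14. All 6 meningeal genes (Dcn, Lum, Col1a1, Col1a2, Col3a1 and Aldh1a2) were detected everywhere, 5 were called higher at the coronal ends, and the range of their mean was 2.27. Over the coronal fractions r with the endothelial list was 0.94 for Robo4, 0.84 for Ephb4, 0.72 for Epha2, 0.73 for Efnb1, 0.73 for Efna1, 0.65 for Unc5b and 0.64 for Robo2. With the meningeal list it was 0.93 for Ephb4, 0.81 for Unc5b, 0.77 for Robo4, 0.65 for Epha2, 0.58 for Robo2, 0.45 for Efna1 and 0.33 for Efnb1. The olfactory bulb list, highest in fraction 15, had a higher r than either with Efna1 (0.93), Efnb1 (0.81) and Robo2 (0.84). The group was chosen as high at the coronal ends, where these lists are high too, so a positive coronal r was built in. Over the horizontal and sagittal fractions r with the endothelial list was 0.84 and 0.91 for Robo4, 0.79 and 0.88 for Ephb4 and 0.855 and 0.87 for Efna1. It was 0.08 and 0.95 for Epha2, 0.12 and 0.83 for Efnb1, -0.425 and 0.08 for Unc5b and -0.28 and -0.19 for Robo2. Outside the group, this horizontal r ran from -0.95 (Robo1) to 0.79 (Epha5). The sagittal r ran there from -0.93 (Ephb1) to 0.86 (Unc5a). With the meningeal list r was 0.06 and 0.82 for Robo4, 0.73 and 0.92 for Ephb4 and 0.34 and 0.71 for Efna1. It was 0.74 and 0.73 for Epha2, 0.51 and 0.54 for Efnb1, 0.33 and 0.02 for Unc5b and -0.565 and -0.10 for Robo2. The part of vessels and meninges in these profiles was not tested.

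**Figure D3:**
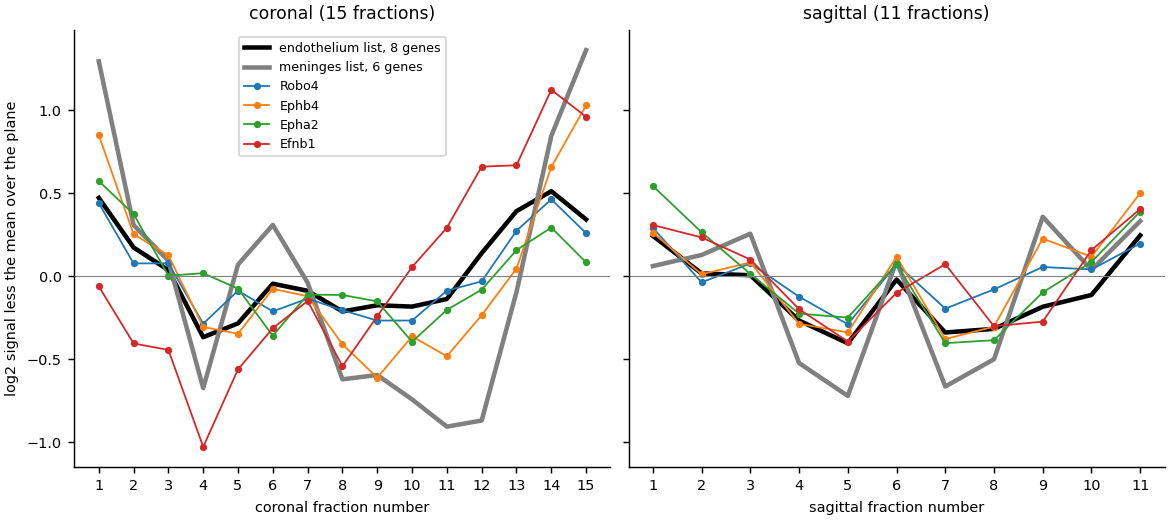
Mean deviation of the endothelial (8 genes, black) and meningeal (6 genes, grey) lists and the log2 signals of Robo4, Ephb4, Epha2 and Efnb1 less their means, over the 15 coronal and 11 sagittal fractions. The 2 lists and Ephb4 are high in coronal fractions 1, 14 and 15.

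Netrin-1 had the widest coronal range of the netrins and their receptors. Ntn1 was highest at 1.28 in fraction 4, fell to its lowest signal of -1.56 in fraction 8, came back to 0.57 and 0.70 in fractions 11 and 12, and lay between -1.36 and -1.10 in fractions 13 to 15. The median was -0.17. The gradient of -1.50 ± 0.64 was not called (limma adjusted p = 0.0783). The second probe repeated the shape with an r of 0.90 and was called (-1.69 ± 0.63, limma adjusted p = 0.0477). The rise in fractions 11 and 12 lay in the fractions where the striatum list peaked. Ntn4, which acts in basement membranes, was well above background in 9 of the 15 coronal fractions and was called for no term.

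Of the netrin receptors Unc5c, a repulsive receptor, fell most. Its signals in fractions 1 to 3 were between 1.82 and 2.08, above all others, the median was 0.94 and the lowest was -0.01 in fraction 15. The mean of 1.99 ± 0.15 in fractions 1 to 3 was 2.46-fold that of 0.69 ± 0.11 in fractions 7 to 9 (SD over 3 fractions). The gradient was -1.46 ± 0.29 with a limma adjusted p of 0.00137, and that of the second probe was -1.72 ± 0.20. The cerebellum and hindbrain lists peaked within these 3 fractions. Unc5a ran from 1.63 in fraction 1 through 3.20 to 3.57 in fraction 7. The curvature of -1.15 ± 0.18 was called with a limma adjusted p of 0.000339. Its gradient of 0.63 ± 0.20 was 0.11 without fraction 1, with a limma adjusted p of 0.653, and 0.57 and 0.44 on the array median and quantile scales, with limma adjusted p of 0.0938 and 0.101. Unc5d, at -0.58 ± 0.19, was not well above background in fraction 6 and the last 4 fractions. The background limit in fractions 13 to 15 was above its signal in fractions 1 to 3, so no fall is given for it.

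The direction for Dcc, the attractive netrin receptor, depended on the probe. The brightest rose by 0.75 ± 0.21 with a limma adjusted p of 0.0133, while the other 2 fell by 0.92 and 2.06, with limma adjusted p of 0.029 and 0.00511. The coronal r between the brightest probe and these was -0.60 and -0.57, so no direction is given for the gene. Epha5 had a flat brightest probe (0.06 ± 0.13) and a second probe that rose by 0.69 ± 0.24, was higher in the middle by 1.30 and rose outward in the sagittal plane by 0.73, all called. The flat Epha5 probe and the Ephb3 probe, of different genes, had an r of 0.91, 0.94 and 0.98 over the coronal, horizontal and sagittal fractions. Epha5, Ephb3 and Ntn4 were the 3 members called for no term.

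**Figure D4:**
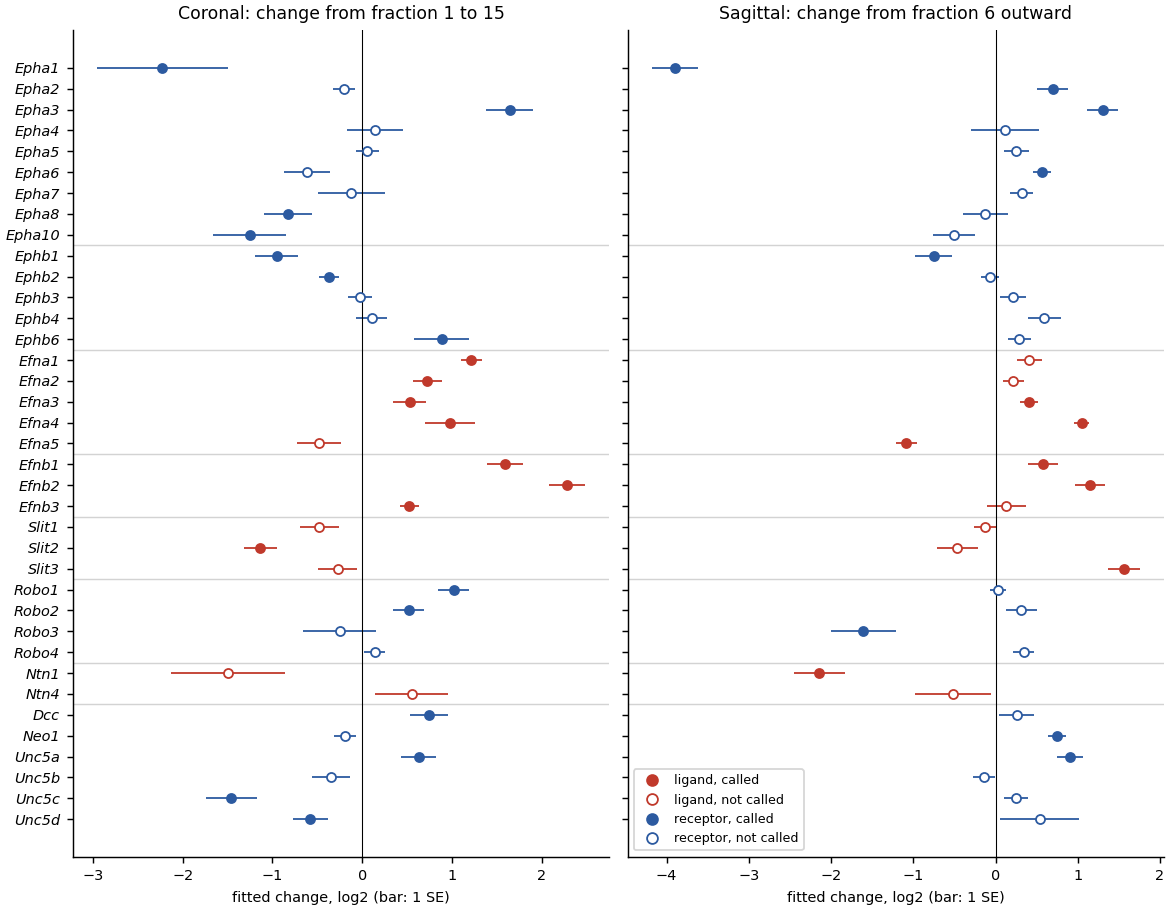
Fitted change of each gene from coronal fraction 1 to 15 (left) and from the middle sagittal fraction outward (right) on the log2 scale, with 1 SE. Red points are ligands and blue points are receptors, and filled points have a limma adjusted p under 0.05. Of the 8 ephrins 7 are filled and to the right of 0 in the coronal panel, and Epha1, Ntn1, Robo3 and Efna5 lie farthest to the left in the sagittal panel, where the Epha1 value rests in part on fractions not well above background.

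In the sagittal series the question was whether a signal changed from the middle outward. The change with distance from fraction 6 was called for 15 of the 37 members, 10 higher outward and 5 higher in the middle, where 34.7% of all genes tested were called (22% outward and 12.8% toward the middle). Higher outward were Epha2, Epha3, Epha6, Efna3, Efna4, Efnb1, Efnb2, Slit3, Neo1 and Unc5a. Epha1, Ephb1, Efna5, Robo3 and Ntn1 were higher in the middle. All 15 had the same sign on either side of fraction 6, as did all 5512 called genes. With the array median as the scale 16 members were called outward and 4 toward the middle. That scale raised the median of all probes by 0.17 and the share of outward calls over all probes from 64.4% to 82.0%, and quantile normalization gave 55.7%. With the slide as a block 5 members remained called (Epha1, Efna4, Efna5, Slit3 and Robo3). Without the slide of all 3 planes, which held fractions 10 and 11, 6 of the 15 remained (the same 5 and Epha3).

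Epha1 was higher in the middle. Fractions 5 to 7 were at -2.46, -2.38 and -2.29, the median was -4.16 and fraction 1 was lowest at -5.92, and fractions 1, 2 and 11 were not well above background. The fitted change outward was -3.90 ± 0.28 with a limma adjusted p of 5.84e-05, which takes the signals of those 3 fractions as measured. With them at the background limit, fractions 5 to 7 were at least 5.36-fold above fractions 1, 2, 10 and 11. Efna5 followed the same course. It was highest in fractions 6 and 7 at 2.45 and 2.51, had a median of 1.86 and was lowest at 1.45 in fraction 2, and changed by -1.08 ± 0.13 with a limma adjusted p of 0.000516. Ntn1 was highest at 0.80 in fraction 6, had a median of -0.17 and was lowest in fractions 1 and 11, at -1.79 and -1.69. Its change was -2.14 ± 0.31, and that of its second probe was -1.87 ± 0.26, with limma adjusted p of 0.00138 and 0.00113.

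Robo3 was a single peak in the sagittal plane. Its signal was -1.29 in fraction 6, the next highest was -2.72 in fraction 5, the median was -3.03 and the lowest was -3.78 in fraction 1. The fitted change was -1.61 ± 0.40 with a limma adjusted p of 0.0143, and -1.78 with a limma adjusted p of 0.101 without fractions 1 and 11. Fraction 6 was also the highest for Slit2, at 0.15 with the next at -0.46 in fraction 10, but its change with distance was not called (-0.47 ± 0.25). Robo2 was lowest in fraction 6 at 1.88, below a next lowest of 2.45, and was not called either (0.32 ± 0.19).

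Slit3 was the member with the largest outward rise. Fractions 1, 2, 10 and 11 lay between -0.68 and -0.53, the median was -1.27, and fractions 4 to 8 lay between -1.88 and -1.62. The change was 1.56 ± 0.20 with a limma adjusted p of 0.000697. Epha3 rose outward by 1.30 ± 0.19 with a limma adjusted p of 0.00132, from -0.90 in fraction 6 to 0.54 in fraction 1, around a median of -0.24. Its mirror fraction 11 was at -0.07. Efnb2 was lowest at 1.95 in fraction 6, had a median of 2.31 and reached 3.21 in both end fractions. It rose by 1.15 ± 0.18 with a limma adjusted p of 0.00193. Efna4 rose by 1.05 ± 0.09 with a limma adjusted p of 0.000114, from -1.35 in fraction 6 to -0.21 and -0.43 in fractions 1 and 11. Unc5a and Neo1 rose by 0.90 ± 0.16 and 0.75 ± 0.11, and the end fractions were the highest for both. Unc5a ran from 3.24 in fraction 4 through 3.42 to 4.24 in fraction 1. Neo1, a receptor for netrins and repulsive guidance molecules, ran from 2.27 in fraction 6 through 2.54 to 3.05 in fraction 11. The outward change of Efna3 was 0.41 ± 0.11, that of Efnb1 0.58 ± 0.19, that of Epha2 0.69 ± 0.19 and that of Epha6 0.56 ± 0.11. Epha6 was lowest at -1.53 in fraction 7 and highest at -0.89 in fraction 11, around a median of -1.18. The Efnb1 call was lost after quantile normalization (0.39, limma adjusted p = 0.152).

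Ephb1 was lowest in the end fractions, at 2.76 and 2.59, had a median of 3.38 and was highest at 3.62 in fraction 8. Fraction 6, at 3.22, stood below fractions 3 to 5 and 7 to 9. The change was -0.75 ± 0.22 with a limma adjusted p of 0.0295, and -0.58 with a limma adjusted p of 0.0753 on the array median scale. Without fractions 1 and 11 it was -0.32 with a limma adjusted p of 0.419.

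From one side of the sagittal series to the other 0 members were called by limma, and 0% of all genes tested. At an unadjusted p under 0.05 there were 3 of 37 members and 1259 of 15871 genes.

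Over the 8 horizontal fractions 2 members were called by limma, both higher at the end where the cortex list peaked, where 3.27% of all genes tested were called (2.27% upward and 0.996% downward). Efna4 ran from 0.14 in fraction 2 through a median of -0.85 to -1.45 in fraction 7. Its gradient was -1.60 ± 0.22 with a limma adjusted p of 0.0208. Ephb6 ran from 4.21 in fraction 2 through 3.57 to 2.59 in fraction 8, with a gradient of -1.20 ± 0.23 and a limma adjusted p of 0.0451. Neither was called without the arrays of the slide that holds all 3 planes (limma adjusted p of 0.068 and 0.0968). With the slide as a block Efna4 stayed called and Ephb6 did not (-1.21, limma adjusted p = 0.0645). At an unadjusted p under 0.05 there were 13 members (35.1%) and 21.6% of all genes tested.

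The 3 Slits had horizontal gradients of 0.67 ± 0.21, 1.21 ± 0.28 and 1.17 ± 0.27 toward high fraction numbers, with limma adjusted p of 0.135, 0.0751 and 0.0724. Ntn1 had the largest gradient of any member. Its signals were between -2.34 and -0.43 in fractions 1 to 4 and between 0.33 and 0.70 in fractions 5 to 8. The gradient was 2.58 ± 0.71 (limma adjusted p = 0.108), and the second probe gave 1.51 ± 0.42 (limma adjusted p = 0.11). Robo3 was higher in fractions 1 to 4, between -2.81 and -1.45, than in fractions 5 to 8, between -3.75 and -3.37, with a gradient of -1.96 ± 0.63 (limma adjusted p = 0.145). The horizontal curvature was called for 0 members by limma and for 1.46% of all genes tested, with 10 members (27%) and 16.3% of all genes at an unadjusted p under 0.05. Epha4 came nearest (-1.13 ± 0.21, limma adjusted p = 0.0662), with its highest signal in fraction 4 and its lowest of 0.31 in fraction 8.

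Ligand and receptor profiles were then set side by side in 72 pairs: ephrin-A with EphA, ephrin-B with EphB, Slit with Robo and Ntn1 with its receptors. The Slits were paired with Robo1 and Robo2 only, and Epha4 with ephrin-A ligands only. Each gene entered by its brightest probe, also Dcc and Epha5, whose probes disagree. In the coronal plane both partners were called for the gradient in 27 pairs, with opposite signs in 20 and the same sign in 7. This split was not taken over ligands with all genes, so it has no share to stand beside. Of the 20 opposite pairs 18 hold a rising ephrin, each of which enters several pairs, and the others are Slit2 with Robo1 and with Robo2. Several hold Epha1 or Epha10, whose low ends were not well above background. The profiles were not all opposed, since r over the 20 pairs ran from -0.76 to 0.21 (Efnb3 with Ephb1). Pearson's r over the 15 coronal fractions was at most -0.7 in 4 of the 72 pairs (5.56%) and at least 0.7 in 0. With the array median as the scale 2 pairs were at most -0.7. Over each ligand with every gene tested the shares were 6.79% and 9.36%. The median coronal r was -0.06 over the pairs and 0.02 over ligands with all genes. The lowest among opposed calls were Efna3 with Epha1 (-0.76) and Efnb1 with Ephb1 (-0.75), and the positions share arrays, slides and neighbours.

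In the sagittal plane r was at most -0.7 in 11 pairs (15.3%) and at least 0.7 in 6 (8.33%), where ligands with every gene tested gave 9.76% and 11.6%. On the array median scale 16 pairs were at least 0.7. Both partners were called in 16 pairs, 9 with opposite signs and 7 with the same sign, a split again not taken over all genes. The most negative r over the 11 fractions was -0.95 for Efna4 with Epha1 and also for Ntn1 with Neo1. Efna5 had an r of -0.94 with Epha6 and -0.90 with Epha3, Ntn1 one of -0.91 with Unc5a, and Efnb2 one of -0.87 with Ephb1. Efna5 with Epha1, in contrast, had an r of 0.96, and Efna4 with Epha3 one of 0.92. The A-class ligands Efna4 and Efna5 ran in opposite directions from the middle outward, and for each of Epha1, Epha2, Epha3 and Epha6 the sign of r with Efna4 was opposite to that with Efna5. These are the EphA receptors called for the change with distance, so opposite signs with 2 opposed ligands were built in. In the horizontal plane 5 pairs had an r of at least 0.7 and 5 of at most -0.7, where ligands with every gene tested gave 8.54% and 7.70%, and the array median left 1 at most -0.7. Slit2 with Robo1 had the highest at 0.88, and no pair had both partners called. The horizontal counts include Epha5 with Efna1 (0.83) and with Efna5 (-0.79). The other Epha5 probe had a horizontal r of -0.68 with the one used.

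**Figure D5:**
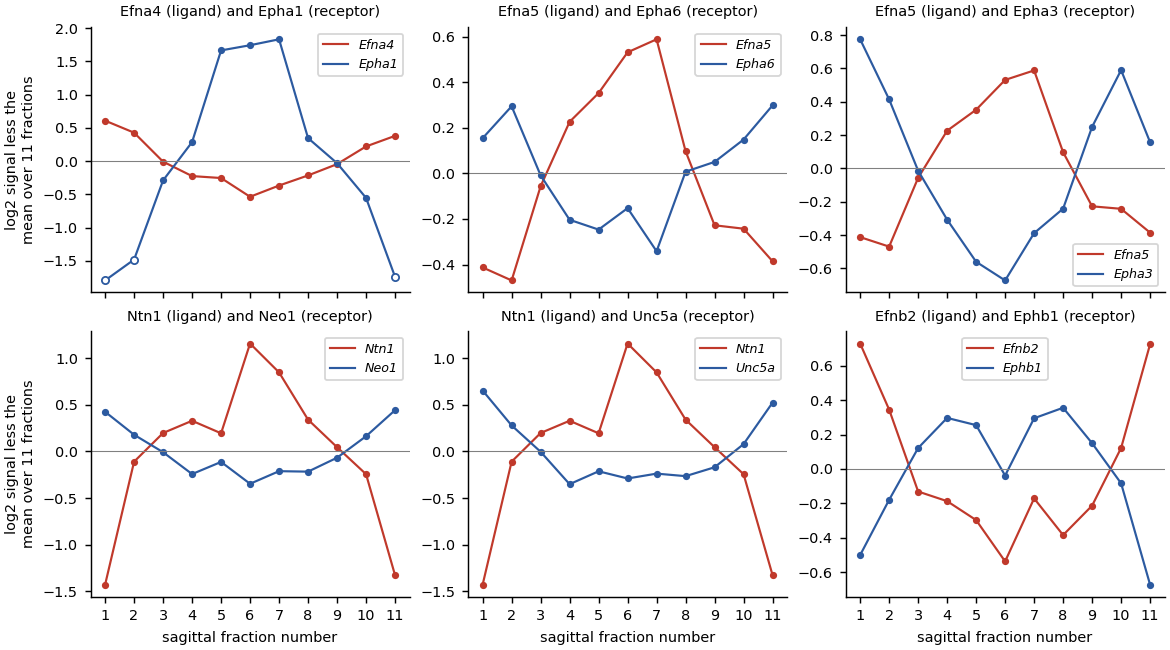
Log2 signal less the mean over the 11 sagittal fractions for 6 pairs of a ligand (red) and a receptor (blue) called with opposite signs. Open circles mark fractions not well above background. The curves of each pair cross on both sides of the middle, and r lies between -0.87 and -0.95.

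The sign of r was the same in all 3 planes for 31 of the 72 pairs and differed between planes for 41. Efna5 with Epha6 had an r of -0.94 over the sagittal, 0.22 over the coronal and 0.50 over the horizontal fractions. Efna1 with Epha6 had 0.68, -0.60 and -0.85. Among pairs that kept their sign, Efna3 with Epha1 had -0.80, -0.76 and -0.49 in that order. The other Efna3 probe had an r of 0.73, 0.31 and -0.09 with the one used, in the same order. Epha1 was not well above background in some fractions of each plane. Efnb1 with Ephb1 had -0.83 in the sagittal and -0.75 in the coronal plane, and -0.10 over the horizontal fractions. The planes come from different mice and different axes, and the differences between these values were not tested.

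Other genes of these pathways, 36 co-receptors, adaptors and related ligands on a list, gave 33 that were tested. Along the coronal axis 11 of them rose and 2 fell, and their curvature was called higher in the middle for 11 and higher at the ends for 1. These are 39.4% and 36.4% of the genes on the list, beside 43.6% and 39.7% of all genes. The largest coronal gradients were those of Sipa1l1 (1.09 ± 0.15, limma adjusted p = 9.59e-05), Ntng2 (1.07 ± 0.32, limma adjusted p = 0.0174) and Tiam1 (0.99 ± 0.12, limma adjusted p = 4.75e-05). Outward in the sagittal plane 10 rose and 5 fell, which is 45.5% beside 34.7% of all genes. Netrin-G1 (Ntng1) and Vav3, an exchange factor, fell by 1.92 and 1.84, and Ntng2, a membrane-anchored netrin, rose by 1.75. The paralogs Ntng1 and Ntng2 thus had opposite sagittal changes. In the horizontal plane 0 were called for the gradient and 1 for the curvature (Ntng1, -1.44 ± 0.20, limma adjusted p = 0.0335).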

How the data were processed

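The authors scanned the arrays and ran Agilent Feature Extraction 10.10.1.1 (array design on mm9). They deposited for each array the spot intensity values, background-subtracted into a processed signal that is not scaled between arrays. A second table, deposited by the authors for 43199 probes, holds log2 intensity. After a constant per array, 99.9% of it differed from the log2 processed signal by no more than 0.02. Here spots of a probe were averaged, log2 was taken and the array's 75th percentile was subtracted. Names came from accessions through RefSeq (GRCm38.p6, used for names and promoters). Each plane was fitted alone in R 4.3.3 with lmFit and eBayes of limma 3.58.1, and p-values were adjusted by Benjamini-Hochberg over 34186 probes. The terms were linear and quadratic terms in fraction number, or distance from sagittal fraction 6 with fraction number. The fits were tested on simulated data. Pearson's r used Python 3.11.15. Neighbouring fractions are alike and each plane is 1 mouse, so p-values are too small as statements about other brains, and the number of arrays limits precision. The normexp alternative used the median spot signal in place of the mean. The members, lists and pairs were chosen with earlier results of these data known. All members were named. Full values were given for up to 8 called members per plane and term with the largest fitted change, and for called ligand and receptor pairs of opposite sign with the most negative r. For other pathway genes the 3 largest changes per plane were named.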

Additional observations from a re-analysis of the deposited data

Results flagged for a closer look

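In 6 of 74 sets of 8 horizontal fractions or of 5 mirror differences of the sagittal series, the highest or lowest value stood far from the others. For independent values this would hold in about 1 in 20 sets. The fractions are ordered positions with alike neighbours, so that rate need not hold here. Slit1 was at 1.78 in horizontal fraction 1, below the other 7 fractions (2.41 to 2.85), and Epha2 was at -1.19 in horizontal fraction 8, above the other 7 (-1.81 to -1.55). In the sagittal plane Epha1 was 0.93 higher in fraction 10 than in its mirror fraction 2, where the other mirror differences were between 0.06 and 0.26, and it was not well above background in fraction 2. Epha10 was 1.53 higher in fraction 10 than in fraction 2 and was not well above background in fraction 2 either. Its other mirror differences were between 0.71 and 0.79. Epha3 in fraction 11 less fraction 1 gave -0.62, and Ephb1 gave -0.17, each below its other mirror differences. Fractions 10 and 11 lay on another slide than their mirrors.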

How the results depend on the processing

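Of 59 calls of single members, 23 kept their direction and their side of the threshold under every alternative, and of 689 such checks 592 were unchanged, 96 lost the call and 1 reversed: the coronal gradient of Dcc was -0.74 with the mean of its probes. With the slide as a block the coronal gradient was called for 4 members and the sagittal distance for 5, and without the slide of all 3 planes the latter for 7, without fractions 1 and 11 for 9. The shares called over all probes fell as well. For the coronal gradient they were 38.9% as reported and 5.11% with the slide as a block. For the sagittal distance they were 28.8% as reported, and 3.45%, 5.54% and 9.94% in these 3 runs. The horizontal gradient was called for 1 member with the array median or the mean of all probes, for 10 after normexp, for 7 over probes detected in all fractions, for 8 with limma-trend, for 4 without fraction 1, and for 0 without a filter, without fraction 8 or without the slide of all 3 planes. Over all probes the share called was 2.8% as reported, 6.19% after normexp, 5.8% with detection in all fractions, 5.32% with limma-trend and 2.79% without fraction 1. The horizontal curvature gave 1 call after normexp and 2 with detection in all fractions or limma-trend. Pairs with r of at most -0.7 numbered 2 in the coronal and 1 in the horizontal plane with the array median, pairs of at least 0.7 numbered 16 in the sagittal plane with that scale, and with Spearman's rho those of at least 0.7 numbered 1 in the coronal and 3 in the horizontal plane. The cause was not tested. Runs that left fractions out differ from the main fit in the number of arrays, the positions and in part the slides at once. With the authors' log2 values all 59 calls were unchanged. The constant per array of those values lay within 0.0122 of the 75th percentile, so this run nearly repeats the main fit. It supplies 59 of the 592 unchanged checks. No paired analysis was possible because the fraction numbers are positions along different axes of different mice and not replicates. Signal over background limits Epha1, Epha10, Ntn4 and Unc5d, which were not well above background in some fractions.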
